A study of Drosophila melanogaster with 3 samples.

Results

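The 10 genes Hsp83, Hsp27, Hsp60A, Hsp22, Hsp23, Hsp26, Hsp68, Hsc70-4, Hsc70-5 and Hsf were examined out of 13945 protein-coding genes on the 6 chromosome arms of Drosophila melanogaster. They were taken by name as the heat shock and chaperone genes and not by a rule on measured values. Earlier results of these data were known when they were chosen, so their share is not that of a blind choice. The study mapped where the product of CG17186, annotated only as an uncharacterized protein, sits on the fly genome by chromatin immunoprecipitation followed by sequencing (ChIP-seq). The embryos came from a stable transgenic line making CG17186 with a C-terminal green fluorescent protein (GFP), were of both sexes, and were collected 0 to 14 hours after laying. An antibody to GFP recovered chromatin sheared by sonication to 200 to 800 bp, in 3 biological replicates of this 1 group. The labels name no heat treatment and no second group, they do not say what promoter drives the transgene, and a control library they list as a possible match was not analysed here.

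Chaperones hold unfolded proteins in solution or help them to fold, and many also do so in unstressed cells. The Hsp90 and Hsp70 families work through cycles of ATP binding, Hsp60 is a folding chamber of the mitochondrion, and the small heat shock proteins bind unfolding proteins without ATP. On heat, the transcription factor Hsf forms trimers and binds heat shock elements, arrays of GAA and TTC units, at promoters that in the fly often also hold GAGA factor and a paused RNA polymerase.

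A peak was assigned to a gene when its summit, the position of highest signal within the peak, lay within 500 bp of any of the gene's annotated transcription start sites (TSSs). In the authors' reproducible list of 3814 peaks, 5 of the 10 genes had such a summit: Hsp83, Hsp27, Hsc70-4, Hsc70-5 and Hsp60A. That is 50% (exact Clopper-Pearson 95% interval 18.7 to 81.3%, which covers the count of genes only), beside 28.0% of all coding genes. The 5 without were Hsp22, Hsp23, Hsp26, Hsp68 and Hsf. The members with a summit thus include the Hsp90 gene, the 2 Hsp70 cognates studied and the mitochondrial Hsp60 gene, and 1 of the 4 small heat shock genes.

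The promoter sequence around these summits is shown first, because the distance between the summit, the TATA box and the heat shock units can be read from it. Each sequence is from the dm6 assembly (RefSeq), 5′ to 3′ on the strand of the gene, and capitals mark the words found by the search described further on. For Hsp27 (chr3L:9383813-9384062, plus strand), Hsc70-4 (chr3R:15242437-15242686, plus strand) and Hsp60A (chrX:11108232-11108481, plus strand) it is the 250 bases before the first annotated TSS. The summit is base 113 in Hsp27, base 85 in Hsc70-4 and base 178 in Hsp60A. For Hsp83 only a site of 30 bases near the summit is given (chr3L:3193137-3193166, plus strand), in which the capitals are a GAA unit facing a TTC unit. Hsp68 (chr3R:24057311-24057560, minus strand) is shown as a heat-inducible promoter with a long array of heat shock units and no reproducible summit.
Hsp83: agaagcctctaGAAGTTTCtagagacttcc
Hsp27: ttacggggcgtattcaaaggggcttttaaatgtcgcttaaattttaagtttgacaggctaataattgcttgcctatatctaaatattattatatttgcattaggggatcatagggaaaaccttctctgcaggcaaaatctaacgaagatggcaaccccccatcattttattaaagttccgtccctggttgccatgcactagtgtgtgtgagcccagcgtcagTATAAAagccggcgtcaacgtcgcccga
Hsc70-4: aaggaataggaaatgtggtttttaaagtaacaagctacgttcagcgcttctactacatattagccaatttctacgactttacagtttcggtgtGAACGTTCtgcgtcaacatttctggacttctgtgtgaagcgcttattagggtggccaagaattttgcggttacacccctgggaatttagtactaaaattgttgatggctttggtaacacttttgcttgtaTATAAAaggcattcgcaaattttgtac
Hsp60A: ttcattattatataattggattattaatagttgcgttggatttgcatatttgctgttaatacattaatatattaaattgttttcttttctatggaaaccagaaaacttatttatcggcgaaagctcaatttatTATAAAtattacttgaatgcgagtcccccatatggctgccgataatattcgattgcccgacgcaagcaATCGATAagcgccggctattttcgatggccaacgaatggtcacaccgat
Hsp68: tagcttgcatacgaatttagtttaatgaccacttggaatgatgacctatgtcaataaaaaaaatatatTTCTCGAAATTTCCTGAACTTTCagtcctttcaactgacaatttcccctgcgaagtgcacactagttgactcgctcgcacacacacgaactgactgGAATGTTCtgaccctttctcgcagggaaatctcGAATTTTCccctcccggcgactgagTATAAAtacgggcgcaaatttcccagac

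The deposited signal of a peak is the peak caller's own value, on a scale that the sources used here do not define. It was used to rank peaks within a list, where rank 1 is the strongest. To set replicates side by side, the signal in each replicate was divided by the median of that replicate over the 3758 reproducible peaks found in all 3 replicates. This relative signal is 1 for a typical shared peak. The medians used were 64.82, 49.41 and 65.55 in replicates 1, 2 and 3. Read counts are not part of these files, and the depth of each replicate is unknown.

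Hsp83 encodes the cytosolic Hsp90 of the fly, which matures kinases, steroid receptors and other client proteins. The gene (FBgn0001233, dm6 chr3L:3192969-3197059, plus strand) has annotated TSSs at 3192969 and 3193216, and its peak at 3192947 to 3193220 had a summit at 3193104. The summit lay 112 bp upstream of the second TSS and inside the 5′ UTR of the longer transcript, and no other gene had a TSS within 500 bp of it. Its signal of 557.4 ranked 147 of 3814, and 95.2% of the coding genes with a reproducible summit, called bound coding genes below, had a lower one.

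The Hsp83 peak had a signal of 156.0 in replicate 1 (rank 254), 155.9 in replicate 2 (rank 176) and 232.6 in replicate 3 (rank 116). The relative signal was therefore 2.41, 3.16 and 3.55, a mean of 3.04 ± 0.580 (SD, n = 3). It was above the median shared peak in all 3 replicates, and the replicate summits fell within 11 bp of each other, against a median range of 51 bp over the 3758 shared peaks. A second reproducible peak of Hsp83, outside the window, had its summit in an intron 1024 bp downstream of the second TSS, with a signal of 162.7 (rank 2009) and a relative signal of 0.917 ± 0.275 (n = 3).

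Hsc70-4 is the constitutive cytosolic Hsp70, known among other things for stripping clathrin from vesicles. The gene (FBgn0266599, chr3R:15242687-15246614, plus strand, 6 TSSs) had its summit at 15242521, in a peak at 15242316 to 15242725, 166 bp upstream of the first TSS and in intergenic sequence. The signal of 325.2 ranked 439, above that of 86.2% of bound coding genes. The summit was shared with tefu, the fly ATM kinase of the DNA damage response, which is transcribed the other way from a TSS 285 bp from the summit and 451 bp from that of Hsc70-4. A signal in this gap cannot be given to either gene by position alone, although Hsc70-4 was the nearer.

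In the 3 replicates the Hsc70-4 peak had signals of 97.58 (rank 729), 128.1 (rank 248) and 105.3 (rank 615). The relative values were 1.51, 2.59 and 1.61, with a mean of 1.90 ± 0.601. Replicate 2 was the highest and the others lay close together, giving a coefficient of variation of 31.6%, above the upper quartile of 29.3% over shared peaks. The replicate summits spanned 44 bp.

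Hsc70-5 is the mitochondrial Hsp70, which draws proteins into the matrix and folds them. The gene (FBgn0001220, chr2R:14252598-14256192, minus strand) had an intergenic summit at 14256430, in a peak at 14256225 to 14256634, with a signal of 238.0 (rank 911), above 72.0% of bound coding genes. This summit was nearer to CG8531, whose TSS was 63 bp away, than to Hsc70-5, whose TSS was 238 bp away. The genes are transcribed away from each other with 301 bp between their TSSs.

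The strongest replicate peaks at Hsc70-5 had signals of 88.35 (rank 925), 88.31 (rank 547) and 114.2 (rank 513). Relative to the replicate medians these were 1.36, 1.79 and 1.74, a mean of 1.63 ± 0.233. All were above 1, but the summit position differed. It was 7 bp downstream of the Hsc70-5 TSS in replicate 1, and 222 and 271 bp upstream in replicates 2 and 3. Replicate 1 had a weaker summit 206 bp upstream (signal 72.12, rank 1444), so each replicate had a summit within the peak on the CG8531 side.

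Hsp60A encodes the mitochondrial chaperonin. The gene (FBgn0015245, chrX:11108482-11112308, plus strand) had an intergenic summit at 11108409, in a peak at 11108204 to 11108613, 73 bp upstream of its first TSS and shared with no other gene. The signal of 120.1 ranked 3341 of 3814, and 9.68% of bound coding genes had a lower one. It was the weakest of the 5 and close to the end of the reproducible list, whose weakest peak had a signal of 109.3.

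In single replicates the Hsp60A peak had signals of 31.93 (rank 5579), 41.67 (rank 2429) and 49.64 (rank 3168). The relative values of 0.493, 0.843 and 0.757 (mean 0.698 ± 0.183) were all below the median shared peak. The summits lay at 189 bp downstream, 185 bp upstream and 60 bp upstream of the TSS, a range of 374 bp that was well above the upper quartile of 94 bp over shared peaks. The pooled summit is therefore not a position that the replicates share.

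The small heat shock genes Hsp22, Hsp26, Hsp23 and Hsp27 lie together at cytological position 67B on 3L. Hsp27 encodes a small chaperone that is also made in unstressed cells during development, and it was the member of this cluster with a reproducible summit. The gene (FBgn0001226, chr3L:9384063-9385694, plus strand) had a reproducible peak of 149 bp at 9383841 to 9383989, against a median reproducible width of 410 bp. Its summit at 9383925 was intergenic, 138 bp upstream of the TSS and shared with no other gene. The signal was 378.8 (rank 322), above 90.0% of bound coding genes.

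The Hsp27 peak had signals of 156.4 (rank 250), 95.06 (rank 467) and 115.0 (rank 505) in replicates 1, 2 and 3. The relative signal was 2.41, 1.92 and 1.76, a mean of 2.03 ± 0.342. All 3 values were well above 1, and the summits fell within 10 bp of each other. The peak interval was narrow and ended before the TSS in the reproducible list (149 bp) and in replicate 1 (148 bp). In replicates 2 and 3 it was 440 and 450 bp wide and ran past the TSS.

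Hsp22, a small heat shock protein of the mitochondrion (FBgn0001223, chr3L:9372931-9374964, plus strand), had no reproducible summit. The strongest summits near its TSSs had signals of 33.54 (rank 5209), 16.18 (rank 13000) and 39.34 (rank 4582), relative values of 0.517, 0.328 and 0.600 (mean 0.482 ± 0.140). They lay 87 bp upstream, 492 bp downstream and 138 bp upstream of a TSS. Replicate 2 also had a weaker summit 151 bp upstream (signal 14.41, rank 16887), so each replicate had a summit 87 to 151 bp upstream. In the pooled list the strongest summit was 131 bp upstream with a signal of 68.42 (rank 6853). It was also within 500 bp of TSSs of CG4456, which shares the first TSS of Hsp22, and of Hsp67Bc, a small heat shock gene transcribed the other way. This summit lay in the 5′ UTR of CG4456 and was nearer to another TSS of that gene, 78 bp away, than to Hsp22. The upstream summits of replicates 2 and 3 were likewise nearer to CG4456, at 58 and 71 bp, than to Hsp22. The nearest reproducible summit was 5820 bp away, at Klp67A, which encodes a kinesin of the mitotic spindle.

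Hsp26 (FBgn0001225, chr3L:9376418-9377427, minus strand) encodes a cytosolic small chaperone and also lacked a reproducible summit. Its strongest summits had signals of 14.06 (rank 20831), 24.22 (rank 5596) and 19.51 (rank 15245), relative values of 0.217, 0.490 and 0.298 (mean 0.335 ± 0.140). The pooled list held 1 summit 148 bp upstream (signal 57.04) and 1 at 496 bp downstream (60.77), near the edge of the window. Each replicate had a summit on both sides, 95 to 175 bp upstream and 446 to 497 bp downstream. The strongest was the upstream one in replicate 1 and the downstream one in replicates 2 and 3. The highest relative value at Hsp26, 0.490, was below the lowest at Hsp27, 1.76.

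Hsp23 (FBgn0001224, chr3L:9381882-9382765, plus strand), another cytosolic small heat shock protein, had the weakest values. A summit lay 102 bp upstream in replicate 1 (signal 12.85, rank 24003 of 30000) and another 223 bp downstream in replicate 3 (signal 14.62, rank 25213 of 30000). Replicate 2 and the pooled list had none in the window. Its nearest reproducible summit was that of Hsp27, 2043 bp away.

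In the 19000 bp from 16000 bp before the Hsp27 TSS to 3000 bp after it, the reproducible list had 1 summit, the pooled list 8, and the replicate lists 10, 8 and 10. Every replicate summit other than the one at Hsp27 had a relative signal below 1. The divisor is a median over reproducible peaks, the strongest of the pooled list, so values below 1 largely restate absence from the reproducible list. The map of the cluster shows the spacing of the summits, with the Hsp27 summits together at 1 position and the others spread over several.

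**Figure D1:**
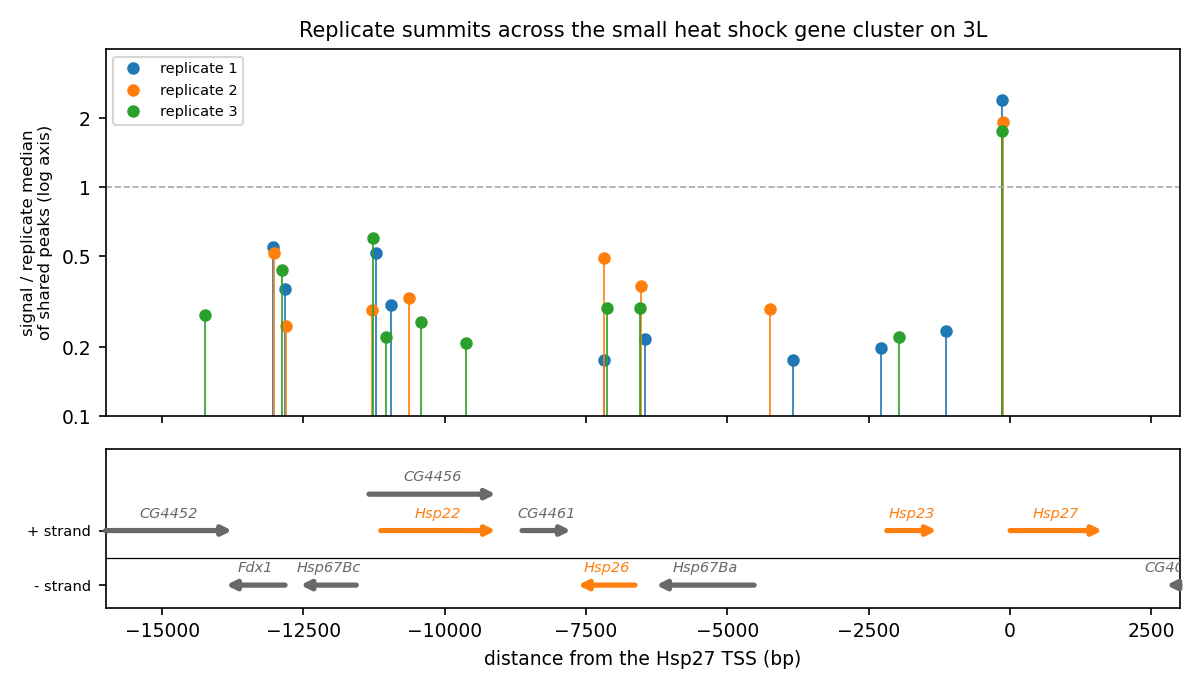
Upper panel, each replicate summit in the cluster by its distance from the Hsp27 TSS in bp (x axis) and its signal divided by the replicate median of shared peaks (y axis, log scale, dashed line at 1). Lower panel, gene spans by strand, with the 4 studied genes in orange; the Hsp27 summits reach 2.41, 1.92 and 1.76 and the other summits stay below the line.

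Hsp68 encodes a heat-inducible protein of the Hsp70 family (FBgn0001230, chr3R:24055080-24057310, minus strand). It had a summit in replicate 1 alone, 41 bp downstream of the TSS, with a signal of 29.12 (rank 6337, relative value 0.449), and none in replicates 2 and 3 or in the pooled list. A reproducible summit lay 993 bp upstream of Hsp68, but only 16 bp from the TSS of SMC1, a cohesin subunit transcribed away from Hsp68. That SMC1 peak had relative values of 0.975, 0.722 and 1.26 (mean 0.984 ± 0.267), a signal of 162.6 and rank 2012.

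Hsf encodes the heat shock transcription factor itself (FBgn0001222, chr2R:18130303-18134634, minus strand) and had no reproducible summit. The strongest summits near its TSS had signals of 28.22 (rank 6657), 16.43 (rank 12568) and 34.17 (rank 5690), relative values of 0.435, 0.332 and 0.521 (mean 0.430 ± 0.0945). Their positions ranged from 24 bp upstream to 430 bp downstream, and the strongest pooled summit was in an intron 365 bp downstream (signal 57.00, rank 8878). In replicate 3 a stronger summit, with a signal of 50.25, lay 631 bp downstream and so outside the window. The nearest reproducible summit was 6067 bp away at pAbp, the poly(A)-binding protein gene.

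**Figure D2:**
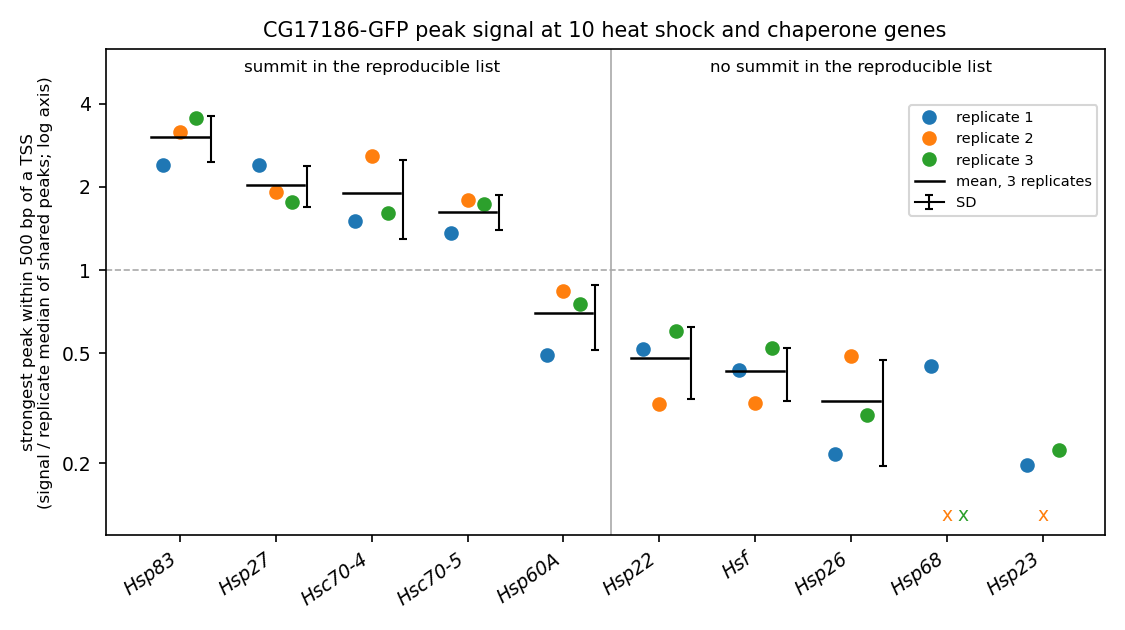
Signal of the strongest summit within 500 bp of a TSS, divided by the replicate median of shared peaks (log axis, dashed line at 1), for each gene and replicate, with mean and SD where all 3 replicates had a summit; a cross marks a replicate with none. Hsp83, Hsp27, Hsc70-4 and Hsc70-5 are above 1 in all replicates, and Hsp60A and the 5 genes without a reproducible summit are below it. The line is a median over reproducible peaks, so genes outside that list are likely to fall below it.

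The order by mean relative signal was Hsp83, Hsp27, Hsc70-4, Hsc70-5 and Hsp60A. Neighbours in this order were compared within replicates. Hsp83 exceeded Hsp27 by 1.01 ± 0.920 and in 2 of 3 replicates, and the ranges of the values met. Hsp27 exceeded Hsc70-4 by 0.129 ± 0.789, and Hsc70-4 exceeded Hsc70-5 by 0.271 ± 0.484, each in 2 of 3 replicates with overlapping ranges. These 3 differences were about the size of their SD or smaller, so the order of neighbours among the first 4 genes was not resolved. Genes farther apart in the order differed more. Hsp83 (2.41, 3.16 and 3.55) was above Hsc70-5 (1.36, 1.79 and 1.74) in every replicate, with no overlap. Hsp83 was also above Hsc70-4, and Hsp27 above Hsc70-5, in every replicate, but with overlapping ranges. Hsc70-5 exceeded Hsp60A by 0.933 ± 0.0583 in 3 of 3 replicates with no overlap, and the smallest two-sided exact p that 3 paired replicates allow is 0.25.

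**Figure D3:**
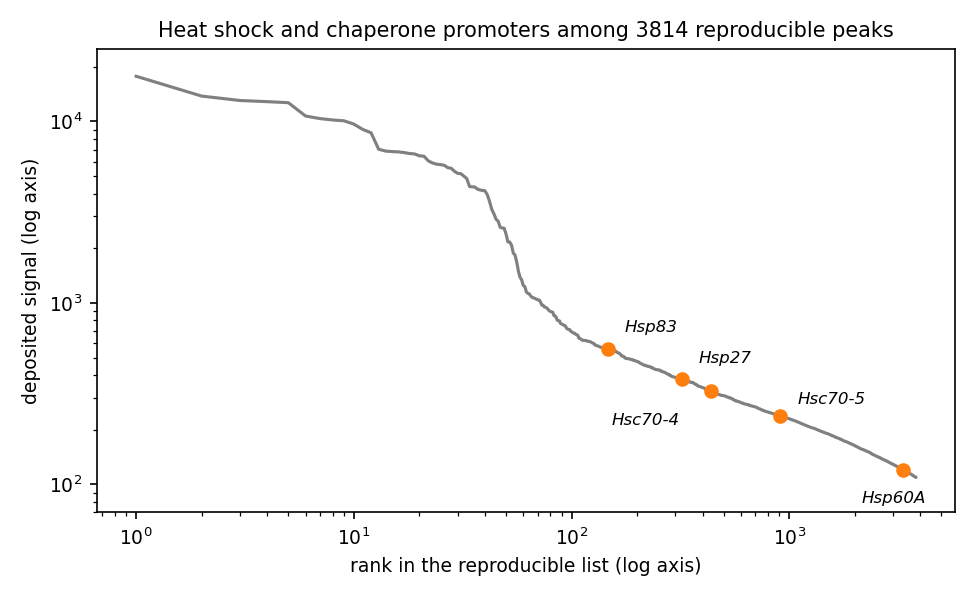
Deposited signal against rank for the 3814 reproducible peaks, both axes logarithmic, with the 5 genes marked. Hsp83 (557.4, rank 147) to Hsc70-5 (238.0, rank 911) lie in the upper part of the list and Hsp60A (120.1, rank 3341) near its end.

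Among all coding genes with a reproducible summit the median of the strongest signal was 179.3 (quartiles 138.4 and 248.4, n = 3905). The median over the 5 genes was 325.2. The 3 strongest genes were above the upper quartile of the bound coding genes, Hsc70-5 was between the median and the upper quartile, and Hsp60A was below the lower quartile.

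The relaxed lists, which hold weak peaks and background as input for the reproducibility step, named more of the genes and also more of the genome. The pooled list had a summit at 8 of the 10 genes, beside 55.2% of all coding genes. Replicate 1 had one at 10 genes (57.6% of coding genes), replicate 2 at 8 (51.9%) and replicate 3 at 9 (57.3%). A summit in all 3 replicates was found at 8 of the 10, beside 42.4% of coding genes. Hsp23 and Hsp68 were the 2 genes missing from both the pooled list and this last count. The weakest signals that the replicate lists hold were 11.10, 11.76 and 13.09, so a gene without a summit may still have a weaker one that the lists do not carry.

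The 500 bp limit took in a few summits close to it. Just inside were summits at 492 bp for Hsp22 in replicate 2, at 496 and 497 bp for Hsp26 in the pooled list and replicate 2, and at 487 bp for Hsp60A in the pooled list. Just outside were summits at 514 and 533 bp from Hsp60A (signals 24.16 and 21.64) and at 540 bp from Hsp83 (15.83). None of the reproducible summits was near the limit, since they lay between 73 and 238 bp upstream of a TSS of the gene. Measured to the nearest TSS of any gene, the median reproducible promoter summit lay 51 bp upstream (quartiles 107 and 10 bp upstream, n = 2955). On that measure the summits of Hsp83, Hsp27 and Hsc70-4, at 112, 138 and 166 bp, were farther upstream than the outer quartile. Those of Hsp60A, at 73 bp, and of Hsc70-5, which was 63 bp from CG8531, were not.

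**Figure D4:**
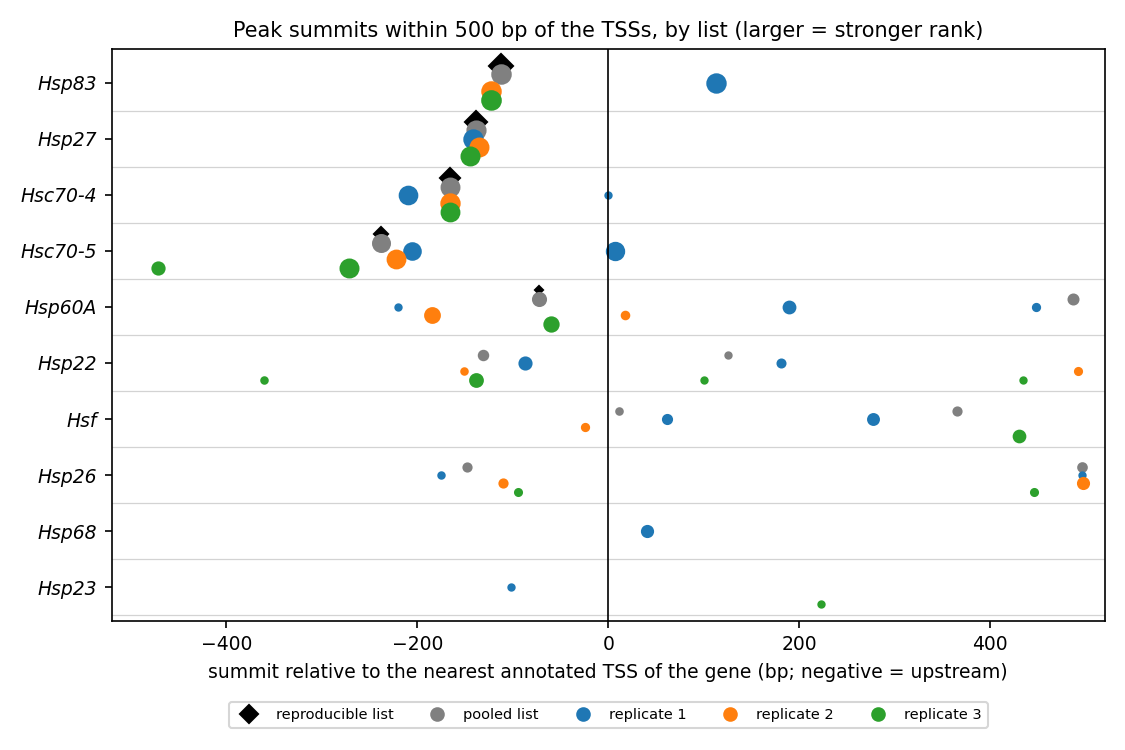
Summits within 500 bp of the TSSs of each gene, as distance in bp from the nearest annotated TSS (negative is upstream), coloured by list, with larger symbols for stronger ranks. Hsp27 summits stack within 10 bp, and those of Hsc70-4 within 44 bp apart from 1 weak summit. Those of Hsp60A, Hsp22, Hsf and Hsp23 are spread over more of the window. Hsp26 has summits 95 to 175 bp upstream and 446 to 497 bp downstream in the pooled list and in each replicate. The Hsp83 summit of replicate 1 is plotted downstream because it is nearer to the first TSS than to the second, yet it lies within 11 bp of the others.

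Short sequence words were searched on both strands in the 300 bases from 250 before to 50 after every annotated TSS, and the same was done for all coding genes. The TATA word TATAAA was present at 9 of the 10 genes, all but Hsf, beside 51.2% of coding genes. With the TSS counted as position 0, its first base was at -28 in Hsp27 and Hsp68 and before the second TSS of Hsp22 and of Hsp26, at -30 before the second TSS of Hsp83, and at -27 in Hsp23 and Hsc70-4. The printed Hsp27, Hsc70-4 and Hsp68 sequences show it near their right end, whereas in Hsp60A it is far upstream at -117.

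A pair of heat shock units, GAANNTTC, was present at 7 genes (Hsp83, Hsp60A, Hsp22, Hsp23, Hsp26, Hsp68 and Hsc70-4), beside 12.0% of coding genes. The other phase of the pair, TTCNNGAA, was present at 4 (Hsp23, Hsp26, Hsp68 and Hsc70-4) beside 9.96%. A run of 3 alternating units spaced by 2 bases, which contains both pairs, was present at Hsp68 and Hsc70-4 beside 0.567%. The search took exact units only, so an array with altered units, at Hsp83 or elsewhere, was not counted. In Hsp68 overlapping runs span -182 to -160, the longest capital stretch in its printed sequence. In Hsc70-4 the run precedes internal TSSs and is not in the stretch printed. In Hsp60A the pair lies before the second TSS, with its first base at -119, and not at the first TSS, where the reproducible summit lay. The genes with heat shock units thus include both genes with a reproducible summit and genes without. Hsp27, with the second strongest signal, had neither pair in this window. The promoter search did not reach bases farther upstream, so any units there would have been missed. Whether heat shock units go with the peaks was not tested.

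The GAGA factor word GAGAG was present at 5 genes (Hsp22, Hsp23, Hsp26, Hsc70-4 and Hsc70-5), beside 36.3% of coding genes. The word TATCGATA of the factor DREF was present at Hsp83 (10.2% of coding genes), and ATCGATA, the core it shares with the insulator protein BEAF-32 and which lies within TATCGATA, at Hsp83 and Hsp60A (20.2%). The E-box CAGCTG was present at Hsp22 (22.3%). The words GGTCACACT (M1BP), CANCNCTA (promoter motif 7), CAGGGCTG (ZIPIC), CAGGTAG (Zelda) and AACAGCAC were in none of the 10 promoters, beside 6.78, 18.4, 2.70, 2.30 and 2.02% of coding genes. These matches describe letters in a window and not binding by those factors.

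With every base of the word required to lie within 50 bp of the summit, there were 3 matches at the 5 summits. GAANNTTC was at Hsc70-4, its centre 12.5 bp downstream of the summit, a word found this close at 2.57% of all reproducible summits. TATAAA (13.4% of summits) and ATCGATA (15.2%) were at Hsp60A, with centres at -41.5 and 27 bp from the summit, where a negative distance is upstream. Within 100 bp GAANNTTC was also at the summits of Hsp83 and Hsc70-5, against 5.48% of summits. At Hsp83 its centre was at 47.5 bp, with its far end just outside the narrower window. At Hsc70-5 it was at -71.5 bp, beyond the CG8531 TSS, which was 63 bp from the summit on that side. It was thus outside the promoter window searched for Hsc70-5. The summits of Hsp27 and Hsc70-4 lay 112 and 142 bp upstream of the centre of the TATA word, so neither was over the TATA box. The GC content of the 250 bases before the TSS ran from 27.6% at Hsc70-5 to 51.2% at Hsp23, around the coding gene median of 37.2% (quartiles 32.0 and 44.0%).

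For each of the 5 genes the peaks most like it were those with the smallest distance in log2 relative signal over the 3 replicates, among 2629 promoter peaks. For Hsp83 they belonged to Smg5 (distance 0.154), a nonsense-mediated decay factor, and Rtnl1 (0.240), a reticulon of the endoplasmic reticulum. For Hsp27 they were CG9743 (0.114) and CG13601 (0.139), and for Hsc70-4 the ribosomal protein gene RpL19 (0.174) and DUBAI (0.180), a deubiquitinase. For Hsc70-5 they were Mic26-27 (0.0595), of the mitochondrial cristae, and Atg18a (0.0666), of autophagy. For Hsp60A they were CG14207 (0.0943), itself a small heat shock protein gene, and Hydr1 (0.0962).

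Chaperone genes beyond the 10, also chosen with earlier results known, were taken as 9 lists of 62 genes. Of these genes 26 (41.9%) had a reproducible summit, beside 28.0% of coding genes. Of the Hsp90 relatives and cochaperones 6 of 9 had one: Cdc37, which brings kinases to Hsp90 (signal 242.2), the immunophilin Fkbp59 (235.4), the ubiquitin ligase STUB1 (195.8), the mitochondrial Hsp90 Trap1 (191.0), p23 (141.0) and Sgt1 (124.0). None of these reached the 557.4 of Hsp83. The others, Gp93, Hop (annotated as Stip1) and Aha1, had summits in the pooled list and in all 3 replicates but not in the reproducible one. Of all coding genes, 55.2% had a summit in the pooled list and 42.4% in all 3 replicates.

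The cytosolic chaperonin CCT, which folds actin and tubulin, had reproducible summits at 6 of its 8 subunit genes: CCT2 (185.6), CCT7 (143.0), CCT1 (124.6), CCT4 (115.4), CCT5 (114.1) and CCT8 (109.4). All 8 had a summit in each replicate, beside 42.4% of all coding genes. The signals of CCT1, CCT4, CCT5 and CCT8 were near the 120.1 of Hsp60A, the related chaperonin of the mitochondrion. All of these were close to the 109.3 of the weakest reproducible peak. Those of CCT2 and CCT7 were above that of Hsp60A. The summits at CCT4 and CCT5 were nearer to another gene, CG6153 and Oda. Prefoldin, which hands actin and tubulin to CCT, had 3 of 6 genes: Pfdn6 (188.3), mgr (151.9) and Pfdn5 (112.6). The Pfdn6 summit was nearer to Su(z)12.

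The J proteins and nucleotide exchange factors, which drive and reset the Hsp70 cycle, had 8 of 14: Tpr2 (295.0), Csp (253.3), P58IPK (223.4), stv (222.1), mrj (207.9), DnaJ-60 (174.8), DnaJ-1 (154.3) and Sec63 (152.7). The median of these 8, 215.0, lay between the signals of Hsc70-5 and Hsp60A, and the DnaJ-60 summit was nearer to spag. Of the other Hsp70 cognates and Hsp110, Hsc70Cb (181.3) had a reproducible summit and Hsc70-1, Hsc70-2 and Hsc70-3 did not. Hsc70-3, the Hsp70 of the endoplasmic reticulum, had weaker summits in the pooled list (70.29) and in the 3 replicates (29.56, 12.97 and 35.39). Hsc70-1 had a summit in the pooled list (48.78) and in replicates 1 and 2, and Hsc70-2 in replicate 2 alone (15.50). Of the other Hsp60, Hsp10 and GrpE genes, CG11267 (153.9) was the 1 of 6.

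The remaining lists had low counts. The other small heat shock genes had 1 of 8, CG14207 (131.0). The heat-inducible Hsp70 genes Hsp70Aa, Hsp70Ab, Hsp70Ba, Hsp70Bb, Hsp70Bbb and Hsp70Bc had 0 of 6 and no summit in any of the lists. They are near-identical copies among which short reads can be hard to place, so their lack of peaks is uncertain, and the part of read placement in it was not tested. The heat shock RNA gene lncRNA:Hsromega had a summit in the pooled list and in all 3 replicates but not in the reproducible list.

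**Figure D5:**
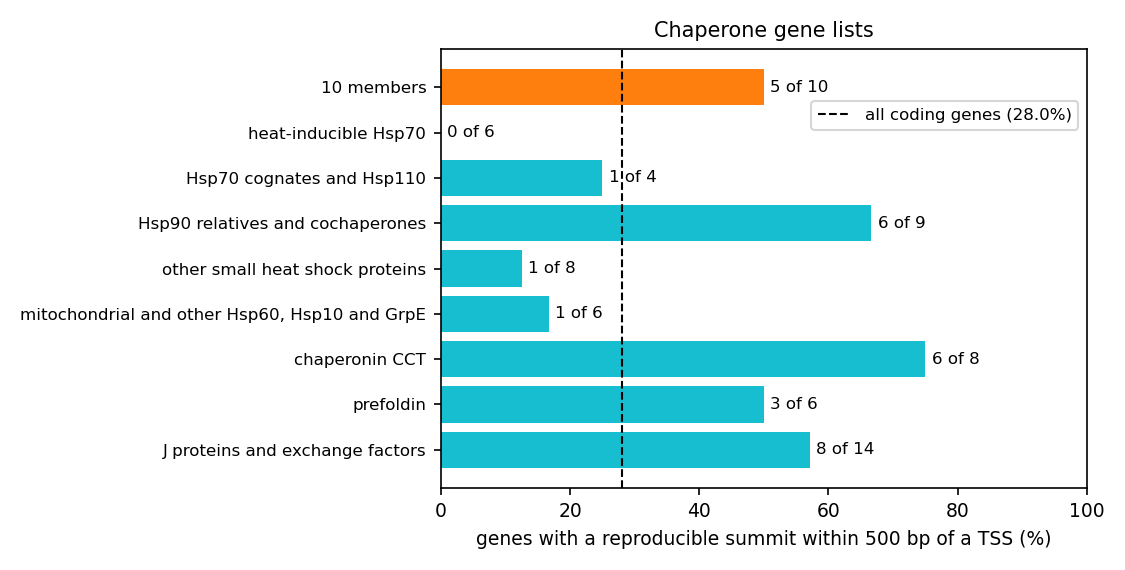
Share of genes with a reproducible summit within 500 bp of a TSS, in percent, for the 10 genes (orange) and 8 chaperone lists (blue), with the count beside each bar and a dashed line at the 28.0% of all coding genes. CCT (6 of 8) and the Hsp90 relatives and cochaperones (6 of 9) are highest, and the heat-inducible Hsp70 genes (0 of 6) are at 0.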

How the data were processed

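ChIP-seq peaks of GFP-tagged CG17186 were analysed in 3 biological replicates of 1 group. As the deposited read-me files state, the authors called relaxed lists of peaks and background on each replicate and on the pooled replicates, and a thresholded list by the irreproducible discovery rate (IDR) procedure, here the reproducible list, whose 3814 peaks are the strongest of the pooled list's 23428. For the aligner, the caller, their versions and the IDR threshold, a name or value is not given in the sources used here. Signal is the value the authors deposited for each peak, and the other columns used were the deposited peak start, end and summit offset. The dm3 lists were not used.

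Summits were assigned to TSSs of the Ensembl release 115 annotation (FlyBase 6.54) within 500 bp. Replicate peaks were matched by an overlap of 1 bp or more. Words were searched in RefSeq's dm6 sequence. Python 3.11.15, numpy 2.4.6, scipy 1.17.1 and matplotlib 3.10.9 were used, and the assignment and word search were tested on simulated data. All 10 genes are named, with each gene sharing a summit, the 2 most alike peaks, and list genes with a reproducible summit. Of the 62 list names, all matched the annotation, 5 through RefSeq synonyms. The names Hop and l(2)tid are synonyms of 2 genes each there, and were taken as the chaperone genes Stip1 and CG5504. The genes and lists were chosen with earlier results of these data known. No test between groups was possible.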

Additional observations from a re-analysis of the deposited data

How the results depend on the processing

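Of the 50 recomputed values, 40 stayed within the spread between replicates or within 1.5 times the count, and 10 did not. A mean that leaves out 1 of 3 replicates always stays within that spread, so those values could not have moved. Whole-list medians are smaller than those of shared peaks, so values scaled to them had to be larger. The tally is therefore not a measure of robustness. The count of 5 genes with a reproducible summit was 3 (22.6% of coding genes) when the peak had to cover the TSS, which dropped Hsp27 and Hsc70-5. It was 8 (55.2%) in the pooled list and 8 (42.4%) with a summit in all 3 relaxed lists. It stayed between 4 and 6 under the other settings. A window of 1000 bp added Hsp68, the nearest TSS alone dropped Hsc70-5, and the stronger part of the list dropped Hsp60A. Scaled to whole-list medians the relative signal was 10.2 for Hsp83, 6.97 for Hsp27, 6.34 for Hsc70-4, 5.48 for Hsc70-5 and 2.32 for Hsp60A, in the same order. Without 1 replicate the means ranged from 2.78 to 3.35 for Hsp83, 1.84 to 2.17 for Hsp27, 1.56 to 2.10 for Hsc70-4, 1.55 to 1.77 for Hsc70-5 and 0.625 to 0.800 for Hsp60A. An overlap of 50% gave no value for Hsp27 and Hsp60A. Matches of words to the 5 summits were 6 within 100 bp and 10 within 150 bp, against 3 within 50 bp, since wider windows hold more letters. The alternatives for Hsc70-4 and Hsc70-5, and those for Hsp22, Hsp26 and Hsf, were chosen after seeing the data. No paired analysis was possible because there was 1 group, so no groups could be fitted with a replicate block. The differences between genes were taken within replicates. The lists hold no read counts, so a missing summit was not detectable in these lists rather than absent.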
